A study of Mus musculus with 34 samples.

Results

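Hepatic glucose metabolism was followed through 8 genes, out of 51368 in the table, that were chosen by name for their roles: Pck1, Pcx, Fbp1 and G6pc for gluconeogenesis, Pklr for glycolysis, Khk for fructose use, and Gys2 and Pygl for glycogen. All 8 were found and passed the filter on low counts in every comparison. The libraries were made from liver RNA of 1 wild-type C57BL/6J mouse aged 12 weeks, with 1 heart library beside them, and no group carried an allele or received an agent. The labels conflict on the animal's sex, with female in the characteristics and male in the protocol. PolyA selection, which captures RNA by its tail, was used for 9 liver libraries of batch 1. Ribosomal RNA (rRNA) was pulled down with probes in 9 liver libraries and digested after probe binding in 9 others, all of batch 2. Each of these 3 methods covered 3 ramp rates of the PCR (slow, medium and fast) by 3 fragment lengths (short, medium and long), with 200 ng of input. Unselected liver libraries, with no step against rRNA, numbered 3 in batch 1 and 3 in batch 2, and the single unselected heart library belonged to batch 1. They were made from 20 ng, with the kit of the pull-down set, a slow ramp and medium-length fragments, and all libraries had 13 PCR cycles.

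The liver makes glucose from lactate, amino acids and glycerol during fasting and stores it as glycogen after a meal. Gluconeogenesis bypasses the irreversible steps of glycolysis with dedicated enzymes, whose genes respond to glucagon through cyclic AMP and to insulin, while glycolytic and fructose enzymes respond to carbohydrate intake. Many of these enzymes exist as isozymes, one typical of liver and another of muscle or of most tissues. Pck1 encodes cytosolic phosphoenolpyruvate carboxykinase, Pcx pyruvate carboxylase, Fbp1 fructose-1,6-bisphosphatase and G6pc the catalytic subunit of glucose-6-phosphatase, which releases free glucose. Pklr encodes the pyruvate kinase of liver and red cells, Khk ketohexokinase, Gys2 liver glycogen synthase and Pygl liver glycogen phosphorylase.

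In the GRCm38 annotation, Pck1 (ENSMUSG00000027513) lies at chr2:173153048-173159273 on the plus strand and Pcx (ENSMUSG00000024892) at chr19:4510472-4621752 on the plus strand. Fbp1 (ENSMUSG00000069805) lies at chr13:62864753-62888282 on the minus strand and G6pc (ENSMUSG00000078650) at chr11:101367561-101377903 on the plus strand. Pklr (ENSMUSG00000041237) lies at chr3:89136142-89146784 and Khk (ENSMUSG00000029162) at chr5:30921431-30931248, both on the plus strand. Gys2 (ENSMUSG00000030244) lies at chr6:142422613-142473109 and Pygl (ENSMUSG00000021069) at chr12:70190811-70231488, both on the minus strand. All are protein coding, with values per whole gene. Pklr shares 711 bp of exon sequence with Hcn3 on the opposite strand. Whether strand was used in the counting is not given in the sources used here, so reads there could not be told apart. No other member shared exon bases with another gene.

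Sequence upstream of the start sites was examined because these genes are textbook targets of liver factors. RefSeq promoter windows (GRCm38.p6, 250 bases before to 50 after a start site) were matched by symbol for 7 of the 8 genes, all but Gys2, and 6 motifs were searched on both strands. TTACGTCA, a variant of the cyclic AMP response element, was found in the Pck1 window at position -93 from the start site and in 0.499% of all 32851 windows. The capitals in the Pck1 stretch, which ends where its first annotated exon begins (chr2:173152823-173153047, plus strand), mark that element and the reverse of GTTAAT, a half-site of HNF1, at -192. The element overlaps a match to its core, TGACG, at -90. The stretches of G6pc (chr11:101367675-101367704), Pklr (chr3:89136580-89136609) and Khk (chr5:30921480-30921509), all plus strand, lie inside a first exon of GENCODE. They show TATAAA for G6pc and Pklr, and for Khk the reverse of TGACG overlapping CACGTG, an E box of the class bound by carbohydrate-response factors, followed by GTTAAT.
Pck1: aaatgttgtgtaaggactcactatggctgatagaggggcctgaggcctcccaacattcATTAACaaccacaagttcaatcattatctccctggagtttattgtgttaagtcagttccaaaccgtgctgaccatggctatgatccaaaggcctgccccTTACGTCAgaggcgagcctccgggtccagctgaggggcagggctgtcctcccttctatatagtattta
G6pc: gaatccagggcaTATAAAacaggggcaagg
Pklr: acaaaggcagagTATAAAgcagacccacag
Khk: ttcccCGTCACGTGacaccGTTAATctggc
TATAAA began at -29 in G6pc and at -31 in Pklr, where it occurred in 13.6% of all windows. TGACG began at -74, CACGTG at -71 and GTTAAT at -60 in Khk, and these occurred in 20.8%, 7.15% and 7.10% of all windows. G6pc also held GTTAAT at -221, Pygl held TGACG at -44 and Pcx held CACGTG at -248. The matches of Pklr and Pcx lie in their windows from chr3:89136373 and chr19:4510222. Their other windows, from chr3:89135892 and chr19:4594069, held none of the motifs. CAAAGTCCA, a motif of HNF4, was in none of the members' windows and in 0.475% of all windows. These are letter matches only, and no binding was measured.

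The total of counts was 19.87 to 21.7 M (M, mega) in unselected liver and 22.29 M in heart. PolyA selection had 23.45 to 41.4 M and rRNA digestion 19.98 to 30.17 M. In the pull-down set, 8 libraries had 23.38 to 39.19 M, and the slow-ramp library of long fragments had 1.126 M. That library is called the low-depth library, and calls that change without it are given both ways. The rRNA genes, nuclear and mitochondrial, together with Lars2 took 84.83 to 85.72% of the counts in unselected liver and 80.57% in heart. They took 14.18 to 24.53% after pull-down, 0.363 to 1.12% after digestion and 0.214 to 0.406% after polyA selection. Levels are therefore given as normalised CPM, counts per M of library totals scaled by the TMM method over the 33 liver libraries. All 6 hepatocyte markers (Alb, Apoa1, Ttr, Cyp2e1, Tat and Fgb) were above 3 counts in every liver library. Of 6 cardiomyocyte markers, 0 to 3 were above 3 counts in any liver library, and their summed level there was at most 1.05 normalised CPM. With 1 animal, all p-values measure the spread between preparations of one RNA, not between animals.

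PolyA selection gave higher levels than the unselected libraries of its batch for 7 of the 8 genes, and Pcx did not pass the test. The largest difference belonged to Khk, which phosphorylates fructose and was 1.83-fold higher. Gluconeogenic Fbp1, Pck1 and G6pc were 1.44-, 1.37- and 1.34-fold higher, and glycogen genes Gys2 and Pygl 1.33- and 1.18-fold. Genes called at an adjusted p under 0.05 by edgeR's quasi-likelihood test made up 50.4% of the 15422 genes tested, and 25.6% of genes were called higher. With the low-depth library, which enters the same fit, left out, all 8 genes were called higher, against 52.0% of all genes. The median log2 fold change was 0.43 over the members and 0.038 over all genes.

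**Figure D1:**
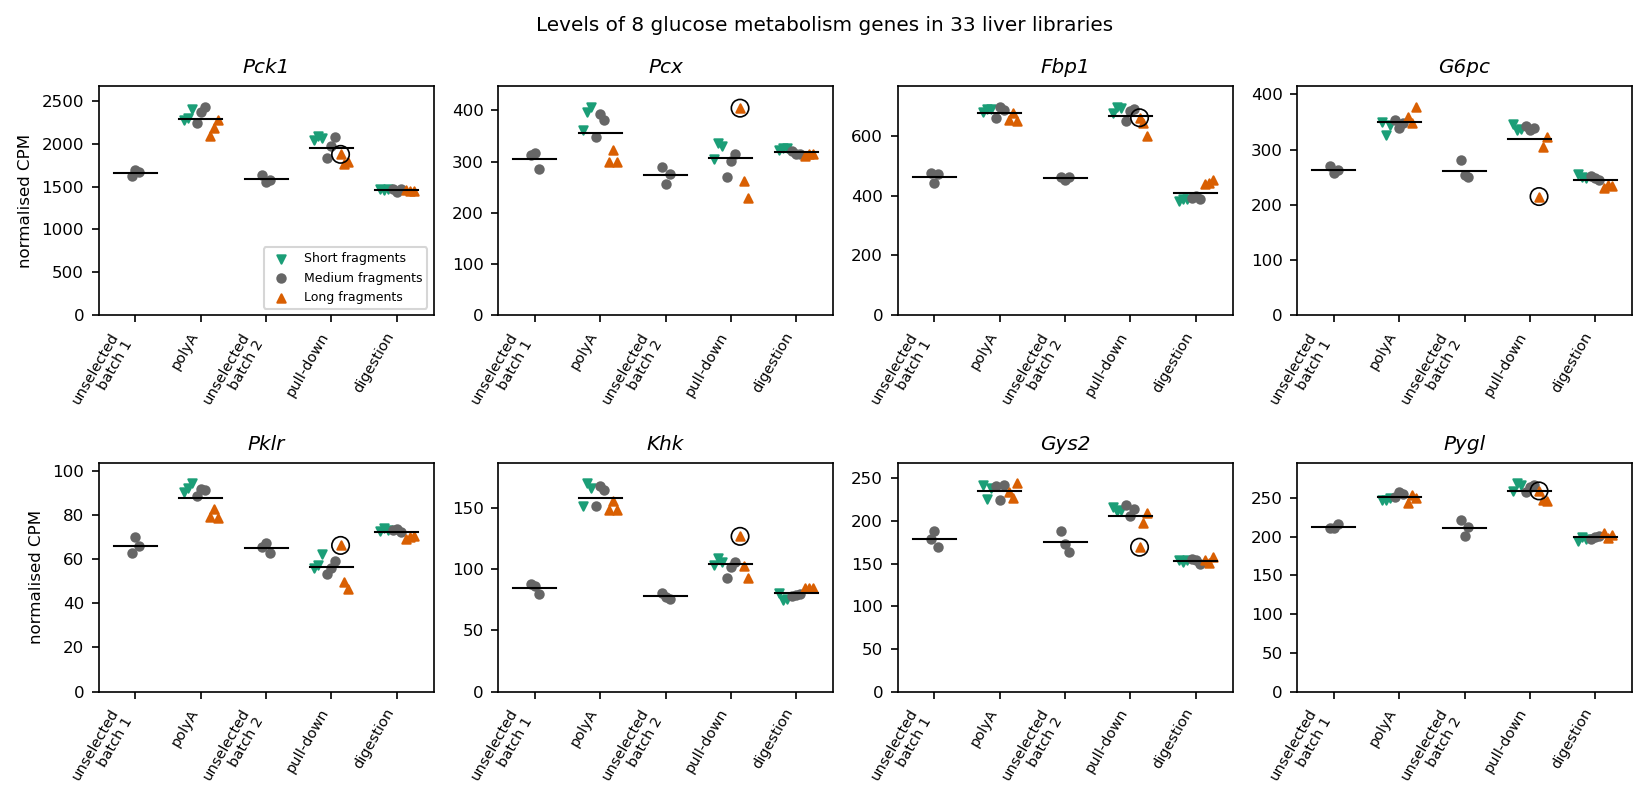
Normalised CPM (vertical axes, from 0) of the 8 genes in the 33 liver libraries, by group; triangles and circles mark fragment lengths, horizontal lines the group means, and open rings the low-depth pull-down library. PolyA points lie above batch 1 unselected points for every gene except Pcx, and digestion points of Pck1 and Gys2 lie below and those of Pcx and Pklr above the batch 2 unselected points. The share of all genes whose groups separate in this way was not counted.

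Pck1, which commits oxaloacetate to glucose synthesis, had 1623, 1698 and 1667 normalised CPM in the unselected libraries of batch 1 and 1630, 1549 and 1574 in those of batch 2. PolyA libraries ranged from 2095 to 2431 with a median of 2278, pull-down libraries from 1768 to 2093 (median 1973) and digestion libraries from 1442 to 1472 (median 1464). Every polyA and pull-down library was above, and every digestion library below, all unselected libraries of its batch. The log2 fold change was 0.45 ± 0.049 (standard error, SE) with polyA selection (adjusted p = 5.22e-09) and 0.29 ± 0.049 for pull-down (adjusted p = 2.10e-05). For digestion it was -0.12 ± 0.049 (adjusted p = 0.0918), short of the threshold although the groups did not overlap.

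Levels of Fbp1, the fructose-1,6-bisphosphatase of liver, were 476, 441 and 473 normalised CPM in unselected batch 1 and 463, 452 and 462 in batch 2. They ran from 650 to 698 (median 679) after polyA selection, from 599.9 to 696 (median 676) after pull-down and from 381 to 452 (median 392) after digestion. PolyA and pull-down libraries lay above all unselected ones of their batch, while the highest digestion library reached the lowest unselected one. The log2 fold changes were 0.52 ± 0.060 with polyA selection (adjusted p = 1.54e-08), 0.51 ± 0.060 for pull-down (adjusted p = 4.47e-08) and -0.19 ± 0.059 for digestion (adjusted p = 0.0250).

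G6pc, the last enzyme before glucose leaves the cell, had 269, 258 and 263 normalised CPM in unselected batch 1 and 280, 254 and 249 in batch 2. PolyA libraries held 326 to 378 (median 349) and digestion libraries 229.9 to 255 (median 248). Pull-down libraries held 304 to 346 with the exception of the low-depth library at 215, whose value rests on 263 counts. Only that library brought the pull-down and unselected ranges into overlap. The log2 fold changes were 0.43 ± 0.082 with polyA selection (adjusted p = 6.39e-05), 0.32 ± 0.082 for pull-down (adjusted p = 0.00279) and -0.081 ± 0.081 for digestion (adjusted p = 0.587).

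Pcx, the mitochondrial enzyme that makes oxaloacetate from pyruvate, had the widest spread of the members in polyA and pull-down libraries. Levels were 313, 316 and 286 normalised CPM in unselected batch 1 and 289, 257 and 276 in batch 2. They were 299 to 407 (median 362) after polyA selection, 229 to 405 (median 306) after pull-down and 311 to 327 (median 315) after digestion. Coefficients of variation were 16.6% after pull-down, 11.7% after polyA selection and 1.79% after digestion, and the low-depth library held the highest pull-down value. PolyA and pull-down ranges overlapped those of the unselected libraries, and Pcx was not called against them in any of the 3 methods (log2 fold changes 0.23 ± 0.11, 0.15 ± 0.11 and 0.23 ± 0.11 for polyA, pull-down and digestion, with adjusted p = 0.0813, 0.337 and 0.181). Without the low-depth library Pcx was called higher for polyA (0.20 ± 0.071, adjusted p = 0.0177) and for digestion (0.21 ± 0.071, adjusted p = 0.0445). With slow ramp and medium length alone, which leaves 1 library of each method, Pcx was at 0.18 for polyA and 0.20 for digestion. The fit with no filter on low counts called Pcx for polyA (adjusted p = 0.0355).

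Pklr, the liver and red-cell pyruvate kinase and the only strictly glycolytic member, moved in opposite directions between methods. It had 62.6, 69.9 and 65.8 normalised CPM in unselected batch 1, and 65.5, 67.1 and 62.6 in batch 2. The polyA libraries held 78.6 to 94.3 (median 90.6), all above batch 1. The pull-down libraries held 46.5 to 66.2 (median 56.0), where only the low-depth library, at 66.2 on 81 counts, reached the unselected range, and digestion libraries held 69.1 to 74.2 (median 72.8), all above it. Pklr rose with polyA selection (log2 fold change 0.43 ± 0.065, adjusted p = 2.25e-06) and fell with pull-down (-0.22 ± 0.066, adjusted p = 0.00881). Without the unselected library numbered 2 of batch 2, the pull-down value was -0.20 with an adjusted p of 0.0577. With digestion it was 0.17 ± 0.065 (adjusted p = 0.0801).

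Khk had 88.2, 85.9 and 79.5 normalised CPM in unselected batch 1 and 80.4, 77.4 and 75.2 in batch 2. PolyA libraries held 148 to 170.0 (median 156), pull-down libraries 92.7 to 127 (median 104) and digestion libraries 75.1 to 84.8 (median 79.4). The first 2 sets lay entirely above their unselected libraries, and the digestion set overlapped them. The log2 fold changes were 0.87 ± 0.076 with polyA selection (adjusted p = 4.48e-11), 0.38 ± 0.076 for pull-down (adjusted p = 0.000210) and 0.015 ± 0.075 for digestion (adjusted p = 0.936).

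Of the glycogen genes, Gys2, which elongates glycogen, had 179, 188 and 169 normalised CPM in unselected batch 1, and 188, 173 and 163 in batch 2. PolyA libraries held 224 to 244 (median 238), pull-down libraries 169 (the low-depth library) to 219 (median 212) and digestion libraries 149 to 158 (median 154), the last all below the unselected range. Its log2 fold changes were 0.41 ± 0.056 (adjusted p = 2.89e-07), 0.26 ± 0.056 (adjusted p = 0.000389) and -0.17 ± 0.055 (adjusted p = 0.0317) for polyA selection, pull-down and digestion. Pygl, which releases glucose units from glycogen, had 212, 211 and 216 normalised CPM in unselected batch 1, and 222, 201 and 212 in batch 2. It held 244 to 257 (median 250.0) in polyA, 246 to 269 (median 259) in pull-down and 195 to 205 (median 199) in digestion libraries. The first 2 sets lay above the unselected ranges and the third overlapped them. Log2 fold changes for Pygl were 0.24 ± 0.040 (adjusted p = 6.69e-06), 0.30 ± 0.040 (adjusted p = 4.84e-07) and -0.080 ± 0.039 (adjusted p = 0.194).

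**Figure D2:**
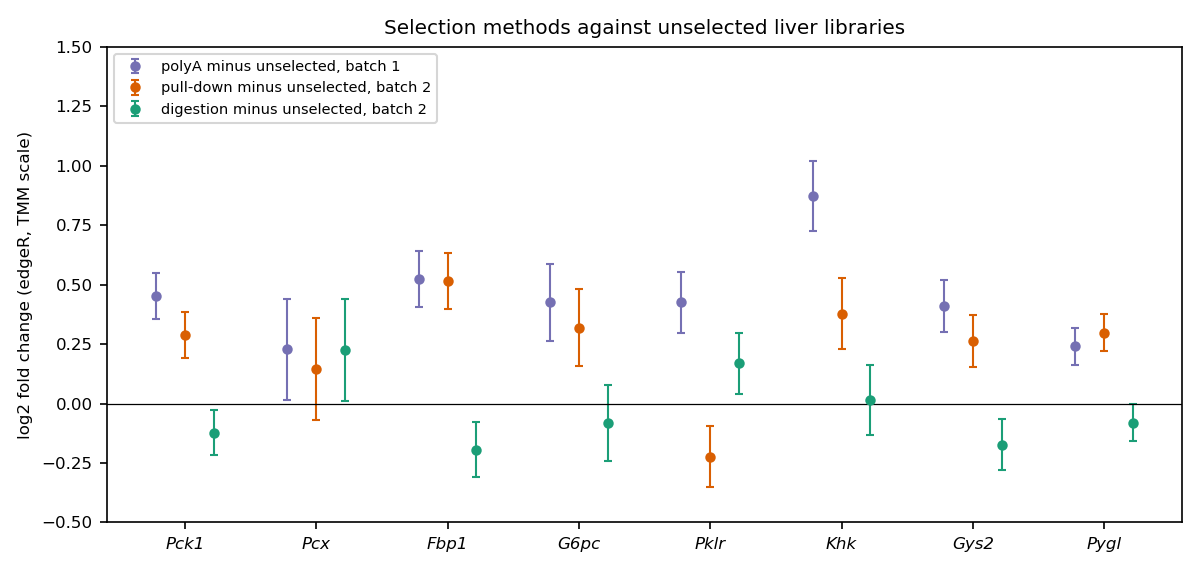
Log2 fold change (vertical axis, edgeR on the TMM scale) of each method against the unselected libraries of its batch for the 8 genes, with approximate 95% intervals from the SE. Khk after polyA selection (0.87) stands highest, Pklr is the only gene below 0 after pull-down (-0.22), and digestion values run from -0.19 (Fbp1) to 0.23 (Pcx).

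In counts, pull-down gave 6 members higher and Pklr lower than the unselected libraries, against 32.8% of all genes called and 17.5% called higher. Digestion gave 2 members lower, Fbp1 and Gys2, against 14.7% of all genes called. These last calls were fragile. None of the members passed without the unselected library numbered 1 or 2 of batch 2, and Gys2 alone passed without number 3, where 10.4%, 8.29% and 10.1% of all genes were called. The fit without the low-depth library called 5 members, with Pck1 (-0.12), Fbp1 (-0.19) and Gys2 (-0.17) lower and Pcx (0.21) and Pklr (0.16) higher, against 17.7% of all genes. Besides Fbp1 and Gys2, DESeq2 called Pck1 (-0.17, adjusted p = 0.000872) and Pygl (-0.13, adjusted p = 0.00542) lower, against 15.6% of all genes called. No member differed by 2-fold from the unselected libraries in any method. Pull-down and digestion were both set against the same 3 unselected libraries of batch 2.

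The scaling sets the zero of these comparisons. With library totals, rRNA included, in place of TMM, the median gene moved to 2.67, 2.31 and 2.85 on the log2 scale for polyA, pull-down and digestion against unselected libraries. Calls were then 14264 higher and 355 lower for polyA (3944 and 3825 with TMM), 14635 and 42 for pull-down (2693 and 2361), and 15101 and 42 for digestion (1089 and 1181). On that scale Pklr in pull-down (2.04) and Pck1 (2.70), Fbp1 (2.63), G6pc (2.74), Gys2 (2.65) and Pygl (2.74) in digestion were above 0 but below the median gene. With totals that leave out rRNA genes and Lars2, the medians were -0.098, -0.12 and 0.13, and calls were 2802 higher and 4654 lower for polyA, 1283 and 3573 for pull-down, and 2143 and 837 for digestion. Pull-down then had Fbp1 and Pygl higher and Pklr lower, and Pck1 (0.12, adjusted p = 0.0771), G6pc (0.15, adjusted p = 0.121), Khk (0.20, adjusted p = 0.0710) and Gys2 (0.092, adjusted p = 0.186) lost the call. Digestion lost the calls of Fbp1 (-0.10, adjusted p = 0.319) and Gys2 (-0.081, adjusted p = 0.298), and Pklr was called higher (0.26, adjusted p = 0.0114). With no filter on low counts, digestion likewise had Pklr higher (0.22, adjusted p = 0.0411) and no call for Fbp1 (-0.15, adjusted p = 0.191) or Gys2 (-0.13, adjusted p = 0.280), and pull-down lost Pklr (-0.18, adjusted p = 0.0730).

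Set directly against pull-down within batch 2, digestion gave 6 members lower and Pklr higher, against 70.7% of all genes called and 36.0% called lower. Method and kit cannot be told apart here. Fbp1 fell most (log2 fold change -0.71 ± 0.036, adjusted p = 3.44e-17), and Pck1, Gys2, G6pc, Pygl and Khk fell by 0.36 to 0.44. Pklr rose by 0.39 ± 0.037 (adjusted p = 5.65e-11), and Pcx was at 0.079 ± 0.065 (adjusted p = 0.280). Without the low-depth library all 8 members were called, against 71.8% of all genes, with Pcx higher after digestion (0.15 ± 0.044, adjusted p = 0.00285). Ranges of Pcx overlapped between the 2 sets with and without that library, and those of G6pc overlapped only through it. With library totals, where the median gene stood at 0.55 and calls were 11397 higher and 1228 lower (5347 and 5553 with TMM), Pck1 (0.15), G6pc (0.16), Khk (0.19), Gys2 (0.12) and Pygl (0.18) were above 0 and below that median. With totals that leave out rRNA genes and Lars2 the median was 0.26, with 8361 calls higher and 2978 lower. Khk then lost the call (-0.098, adjusted p = 0.0676), and Pcx was called higher (0.34, adjusted p = 9.16e-05).

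PolyA selection was called higher than digestion for all 8 genes, against 80.6% of all genes called and 38.4% called higher. Khk again differed most (log2 fold change 0.98 ± 0.042, adjusted p = 1.63e-19) and Pcx least (0.16 ± 0.064, adjusted p = 0.0262). Method, kit and batch cannot be told apart in this comparison. Taken relative to the unselected libraries of each method's own batch, 7 genes were higher, against 42.1% of all genes called, and Pcx was at 0.0021 ± 0.13. With library totals the median gene stood at -0.28, calls were 3919 higher and 8528 lower (5918 and 6510 with TMM), and Pcx was at -0.088. Totals that leave out rRNA genes and Lars2 gave 3943 higher and 8589 lower, with Pcx at -0.089. Pcx and Pklr lost the call with both kinds of totals (Pklr at 0.033 and 0.031, adjusted p = 0.486 and 0.472), and Pcx also with DESeq2 (0.13, adjusted p = 0.0839). With slow ramp and medium length alone, 1 library of each method, Pcx was at 0.12. The polyA and digestion ranges of Pcx overlapped. Against pull-down, 6 members were higher after polyA selection, with 72.6% of all genes called. With library totals the median gene stood at 0.32, calls were 9039 higher and 3324 lower (5615 and 5583 with TMM), and Pygl turned from below to above 0 (0.27). Relative to the own-batch unselected libraries the 6 became 3, Khk (0.50 ± 0.095), Pck1 (0.16 ± 0.060) and Pklr (0.65 ± 0.083), against 29.1% of all genes. DESeq2 on the direct comparison also called Pygl, lower after polyA selection (-0.052, adjusted p = 0.00290), with 72.8% of all genes called. With slow ramp and medium length alone, 1 library of each method, G6pc was at 0.053 and Gys2 at 0.15.

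The unselected libraries of batch 2 and batch 1 overlapped for every member. No member and 0% of the 15422 genes were called between the batches by edgeR on the 33 liver libraries, with 848 genes at an unadjusted p under 0.05. DESeq2 called 18 genes (0.117%), and edgeR on the 6 unselected liver libraries alone called 39 (0.366%), none of them a member. Member log2 differences ran from -0.15 for Pcx to -0.0091 for Pygl. Over the 27 selected libraries, fast against slow ramps called no member and 0.0328% of all genes, and member differences ran from -0.010 for Pcx to 0.046 for Pck1, with SEs of 0.023 to 0.071. Within polyA libraries Pck1 alone was called, higher with a fast ramp (log2 fold change 0.10 ± 0.016, adjusted p = 0.0420), against 0.287% of all genes. Its levels were 2278, 2238 and 2095 normalised CPM with slow and 2404, 2431 and 2276 with fast ramps (short, medium and long fragments), higher with the fast ramp at each length although the ranges overlapped by the long-fragment value. No member was called within digestion libraries (0.388% of all genes) or within pull-down libraries (0%, or 0.118% without the low-depth library). These fits within methods were added after the data were seen, and the difference of the ramp effect between methods was not tested.

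The members called for fragment length differed by method and with the scaling. Across the 27 selected libraries, long fragments gave lower Pck1 (log2 fold change -0.086 ± 0.032, adjusted p = 0.0309), Pcx (-0.17 ± 0.071, adjusted p = 0.0488) and Pklr (-0.15 ± 0.038, adjusted p = 0.00220) than short ones. Of all genes 44.7% were called, and 19.9% were lower. Pck1 and Pcx lost the call with no filter on low counts (adjusted p = 0.139 and 0.0881) and with medium-length libraries left out (adjusted p = 0.0911 and 0.105). Calls were 3778 higher and 3028 lower, against 2241 and 4528 with library totals and 3033 and 3761 with totals that leave out rRNA genes and Lars2. With library totals, G6pc (-0.16), Gys2 (-0.12) and Pygl (-0.088) were called lower too, against 44.4% of all genes called. Within polyA libraries 6 members were called, against 55.2% of all genes. Pcx fell most, from 362, 397 and 407 normalised CPM with short fragments to 299, 322 and 299 with long ones (slow, medium and fast ramp), and the 2 sets did not overlap. Its log2 fold change was -0.35 ± 0.032 (adjusted p = 4.93e-06). Pklr fell from 90.6, 92.2 and 94.3 to 79.0, 82.6 and 78.6 (-0.22 ± 0.031, adjusted p = 0.000115). Khk (-0.12 ± 0.031), Pck1 (-0.10 ± 0.016) and Fbp1 (-0.071 ± 0.022) were also lower, and G6pc was higher (0.074 ± 0.026, adjusted p = 0.0320). The G6pc call was lost with library totals (0.018, adjusted p = 0.572), with totals that leave out rRNA genes and Lars2 (0.020, adjusted p = 0.541) and with no filter on low counts (0.064, adjusted p = 0.0774). It was also lost without any one of 4 libraries, those with medium or fast ramps and long or short fragments (adjusted p = 0.0983 to 0.117). The Fbp1 call was lost without the fast long, slow short or fast short library (adjusted p = 0.0542 to 0.0643).

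Within digestion libraries the direction differed by gene, with 4 members called against 17.9% of all genes. Fbp1 rose from 381, 389 and 389 normalised CPM with short fragments to 438, 441 and 452 with long ones, without overlap (log2 fold change 0.20 ± 0.019, adjusted p = 2.32e-06). Khk rose from 80.2, 75.1 and 75.6 to 84.8, 84.2 and 84.4 (0.13 ± 0.025, adjusted p = 0.00137). G6pc fell from 255, 251 and 248 to 229.9, 236 and 234 (-0.11 ± 0.020, adjusted p = 0.00150). Pklr fell from 72.8, 74.2 and 73.2 to 69.1, 69.9 and 70.6 (-0.073 ± 0.023, adjusted p = 0.0348). Each set of long libraries lay outside the range of its short ones. The Pklr call was lost with DESeq2 (adjusted p = 0.323), with both kinds of totals (0.0594 and 0.0575) and with no filter (0.0998), and without any one of 5 libraries, the 3 short ones and those with long fragments and a slow or medium ramp (adjusted p = 0.0904 to 0.149). Pcx, at -0.054 (adjusted p = 0.0579), was called without the slow or the medium ramp library of medium length (adjusted p = 0.0446 and 0.0405).

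Within pull-down libraries no member was called, against 6.08% of all genes, and 3814 genes had an unadjusted p under 0.05. Calls were 638 higher and 239 lower, against 450 and 2046 with library totals, where the median gene stood at -0.18. The slow-ramp long library is the low-depth one, and its Pcx, at 405 normalised CPM, stood beside 262 and 229 in the other two long libraries. Without it, 4 members were lower with long fragments, against 37.4% of all genes. These were Pcx (-0.44 ± 0.059, adjusted p = 0.000349), Pklr (-0.31 ± 0.056, adjusted p = 0.00187), Pck1 (-0.23 ± 0.047, adjusted p = 0.00331) and Fbp1 (-0.16 ± 0.045, adjusted p = 0.0204). DESeq2 on all 9 pull-down libraries called 0 members, against 9.28% of all genes.

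**Figure D3:**
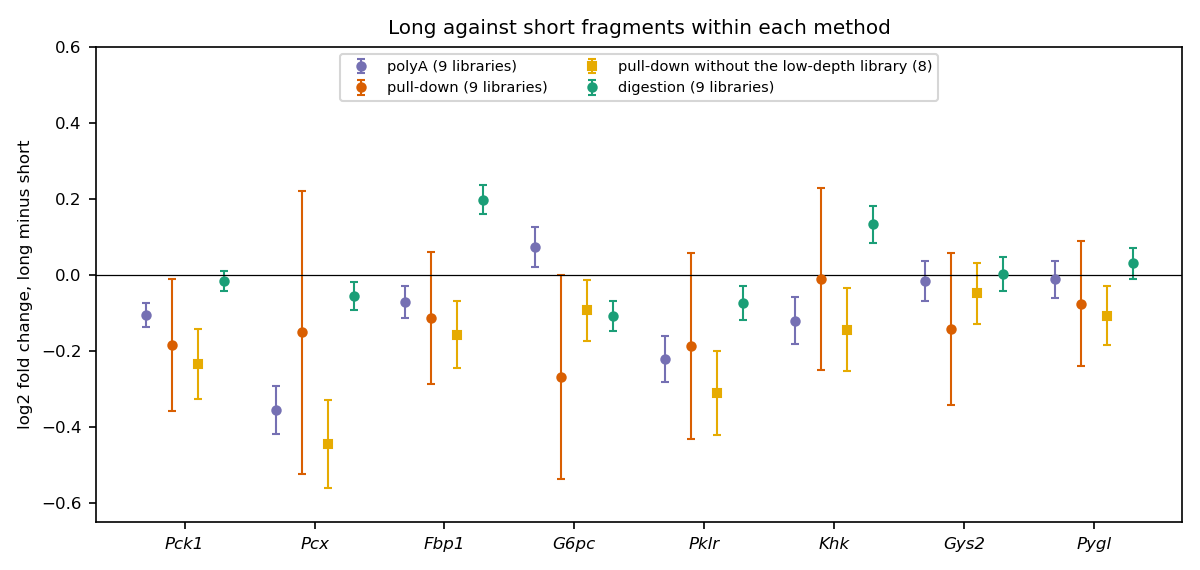
Log2 fold change of long against short fragments (vertical axis) within each method for the 8 genes, with approximate 95% intervals; squares show pull-down without the low-depth library. Pcx is lowest in polyA (-0.35) and in pull-down without that library (-0.44), and Fbp1 lies above 0 only in digestion (0.20).

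The difference of length effects between methods was tested as an interaction over the 27 selected libraries. Fbp1 (-0.30 ± 0.058, adjusted p = 0.000555) and Khk (-0.28 ± 0.082, adjusted p = 0.0122) had lower effects in polyA than in digestion libraries, against 32.6% of all genes called. Fbp1 also had a lower effect in pull-down than in digestion libraries (-0.31 ± 0.058, adjusted p = 0.00118), against 14.4% of all genes. No member was called between polyA and pull-down, where 3.00% of all genes were. With library totals, calls were 2577 higher and 131 lower between polyA and pull-down (213 and 250 with TMM) and 543 and 3936 between pull-down and digestion (1251 and 979). With totals that leave out rRNA genes and Lars2 they were 328 and 253, and 1052 and 1249. Without the low-depth library, 6 members were called between polyA and digestion (36.9% of all genes), and 6 between pull-down and digestion (25.9% of all genes). Pcx was then at -0.32 ± 0.061 and -0.40 ± 0.066 in these, and the first of them had G6pc as the only positive difference (0.16 ± 0.039). Between polyA and pull-down, G6pc alone was then called (0.18 ± 0.042, adjusted p = 0.00831), against 8.45% of all genes.

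The 9 libraries of a method differ in ramp and length and are not replicates, so their spread includes the length differences given above. Coefficients of variation ran from 0.778% (Pck1) to 6.78% (Fbp1) in digestion, from 1.63% (Pygl) to 11.7% (Pcx) in polyA and from 3.18% (Pygl) to 16.6% (Pcx) in pull-down libraries. Counting alone would give at most 1.83% in digestion, 1.64% in polyA and 4.31% in pull-down libraries, or 2.34% in pull-down without the low-depth library. The differences in spread among methods were not tested. In the unselected libraries, where Pklr rested on 299 to 322 counts, counting alone would give up to 5.67%, beside observed values of 1.34 to 7.16%. Counting error covers reads only, since duplicate reads are not independent molecules.

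Per kilobase of the longest coding transcript, Pck1 stood highest in each liver group, Fbp1 second and Pklr lowest. In digestion libraries the order was Pck1 (549 ± 4.25 normalised CPM per kb, SD, n = 9), Fbp1 (276 ± 18.7), G6pc (101 ± 3.60), Pcx (76.8 ± 1.37), Pygl (66.6 ± 1.01), Gys2 (57.8 ± 0.930), Khk (50.6 ± 2.34) and Pklr (24.9 ± 0.627). No neighbours in that order overlapped. In unselected batch 1, Pcx, Pygl and Gys2 overlapped with their neighbours at 73.5, 71.2 and 67.3 normalised CPM per kb. In polyA libraries Khk (99.9 ± 5.62) was above Gys2 (88.6 ± 3.00) without overlap, while Gys2, Pcx (86.0 ± 10.1) and Pygl (83.8 ± 1.37) overlapped. With the union of exons as length, Khk (88.0 ± 4.95) and Gys2 (88.6 ± 3.00) overlapped in polyA libraries. The place of Pygl also depended on the length used, since the union of its exons is 6895 bp and its longest coding transcript 2992 bp.

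Over the 33 liver libraries, which share method and kit within groups, the profiles of Fbp1 and Pygl were the most alike pair of members (Pearson r = 0.976). The low-depth library was included. Of the 28 pairs the median r was 0.736, and Pklr with Pygl had the lowest (-0.077). Among 13402 protein-coding genes, the closest profile was that of Trap1 for Pck1 (r = 0.983), Col18a1 for Pcx (0.972), Gcdh for Fbp1 (0.985) and Kng1 for G6pc (0.981). It was Slc25a22 for Pklr (0.976), Pccb for Khk (0.980), Ces1c for Gys2 (0.984) and Atp5a1 for Pygl (0.987). These are descriptions over libraries of one RNA.

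The wider pathway list held 89 genes of glucose metabolism, the 8 members included. After polyA selection 42 of the 83 tested were higher and 19 lower, with a median log2 fold change of 0.33 beside 0.038 over all genes. Glycolytic Tpi1 rose from 126 ± 7.62 to 224 ± 14.1 normalised CPM (SD, n = 3 and n = 9; log2 fold change 0.80 ± 0.045, adjusted p = 3.73e-15), and Mdh1, a malate shuttle enzyme, from 271 ± 6.67 to 459 ± 23.3. The aldolase gene Aldoc (0.91 ± 0.15) and the enolase gene Eno3 (1.16 ± 0.32), both at low levels, were higher too. Of the insulin signalling genes on the list, the receptor substrate Irs1 fell from 54.9 ± 7.96 to 18.6 ± 1.30 normalised CPM (log2 fold change -1.54 ± 0.084, adjusted p = 1.63e-15) and the receptor Insr from 208 ± 2.45 to 107 ± 10.1. Creb1 (-1.06 ± 0.17), whose product binds cyclic AMP response elements, and hexokinase Hk2 (-1.32 ± 0.28) were also lower. Of the 12 regulators on the list, 7 were lower and 2 higher, and of 7 gluconeogenic genes tested, 4 of them members, 6 were higher, beside 25.6% of all genes higher and 24.8% lower.

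Pull-down had 31 of the 83 higher and 15 lower, beside 17.5% and 15.3% of all genes (median log2 fold change 0.16, beside 0.058 over all genes). Aldoc (0.75 ± 0.15), Tpi1 (0.55 ± 0.046) and Mpc1, a subunit of the mitochondrial pyruvate carrier (0.57 ± 0.055), were higher, as was Pfkfb4 (1.49 ± 0.57) at 0.753 ± 0.0673 normalised CPM. Crtc2, a coactivator of CREB, was lower (-1.40 ± 0.15), as were Foxo1 (-0.96 ± 0.097), Insr (-0.82 ± 0.060) and Mlxipl (-0.86 ± 0.14), which encodes the carbohydrate-response factor ChREBP. Digestion had 9 higher and 8 lower, beside 7.06% and 7.66% of all genes (median 0.024, beside 0.037 over all genes). The factor gene Cebpa rose from 164 ± 11.8 to 333 ± 49.3 normalised CPM (1.17 ± 0.15, adjusted p = 5.48e-07), with Irs2 (0.53 ± 0.14), Irs1 (0.44 ± 0.084) and Foxo1 (0.37 ± 0.093). Mdh1 (-0.61 ± 0.092), Pgk1 (-0.46 ± 0.10) and the glucokinase regulator Gckr (-0.25 ± 0.052) were lower. Long fragments gave 11 of 83 higher, led by Creb1 (0.42 ± 0.076), Ugp2 (0.40 ± 0.12), Pgk1 (0.38 ± 0.062) and Mpc1 (0.27 ± 0.027). They gave 20 lower, beside 24.8% of all genes higher and 19.9% lower, led by Gaa (-0.29 ± 0.074), the glucagon receptor gene Gcgr (-0.27 ± 0.057), Cebpa (-0.23 ± 0.092) and Tkfc (-0.22 ± 0.046).

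Markers of other liver cells also differed by method, although all liver libraries were made from the same RNA. The summed level of 4 Kupffer cell markers was 123 to 131 normalised CPM in unselected batch 1 and 117 to 127 in batch 2, 85.8 to 88.6 in polyA, 174 to 238 in pull-down and 91.7 to 104 in digestion libraries, with all 4 above 3 counts in each. The sum of 3 endothelial markers was 101 to 125 unselected, 49.7 to 55.6 in polyA, 138 to 167 in pull-down and 94.9 to 101 in digestion libraries. The sum of 3 stellate or fibroblast markers was 61.6 to 74.8 unselected, 46.6 to 60.3 in polyA, 75.2 to 116 in pull-down and 54.6 to 65.4 in digestion libraries. That of 3 cholangiocyte markers was 5.63 to 8.86 unselected, 4.03 to 5.53 in polyA, 2.23 to 3.09 in pull-down (0 in the low-depth library) and 8.02 to 10.6 in digestion libraries. The hepatocyte sum was 48370 to 49520 unselected, 64340 to 70130 in polyA, 48170 (the low-depth library; the others from 54940) to 64060 in pull-down and 41260 to 44350 in digestion libraries. The sum of 3 erythroid markers, cells that also express Pklr, was 204 to 247 unselected, 295 to 346 in polyA, 299.6 to 382 in pull-down and 71.6 to 77.0 in digestion libraries. Their part in the members' differences was not tested.

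In the heart library all 8 genes were below every unselected liver library. With 1 heart library, which was assumed to vary as the liver libraries do, edgeR called all 8 lower than batch 1 liver, against 68.5% of the 13004 genes tested called and 33.6% called lower. Calls were 4527 higher and 4375 lower, against 6557 and 2894 with library totals, where the median gene stood at 0.53. In bulk tissue, fewer cells of a type and less RNA per cell cannot be told apart. Values in this comparison are normalised CPM over the 7 unselected libraries, a scale of its own. Pck1 had 1.41 (42 counts) in heart and 392, 411 and 403 in the batch 1 liver libraries, so that heart stood at 0.350% of liver (95% interval 0.252 to 0.473, exact Poisson, counting error only). Its log2 fold change was -8.15 ± 0.10 (adjusted p = 3.06e-27). Fbp1 stood at 0.478% (0.273 to 0.776) on 16 counts, G6pc at 0.473% (0.216 to 0.898) on 9 counts and Gys2 at 0.619% (0.267 to 1.22) on 8 counts. Pygl stood at 1.04% (0.595 to 1.69) on 16 counts. Pklr had 1 count in heart, which is 0.210% of liver with an interval of 0.0053 to 1.17%.

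Khk and Pcx stood apart from the other members. Khk had 0.904 normalised CPM in heart, from 27 counts, and 21.3, 20.8 and 19.3 in liver, which is 4.42% (2.92 to 6.44). Pcx had 4.22 normalised CPM in heart, from 126 counts, and 75.5, 76.4 and 69.3 in liver, which is 5.72% (4.76 to 6.81). The 6 hepatocyte markers were present in the heart library at 0.298 to 0.420% of their liver level, with a median of 0.359%, and Alb alone had 950 counts there. The interval of Pck1, Fbp1, G6pc, Gys2 and Pklr in heart held that range, and those of Pygl, Khk and Pcx lay above it. All 6 cardiomyocyte markers were above 3 counts in heart, with a sum of 6890 normalised CPM against at most 0.256 in unselected liver. The part of liver-derived RNA in the members' heart values was not tested.

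**Figure D4:**
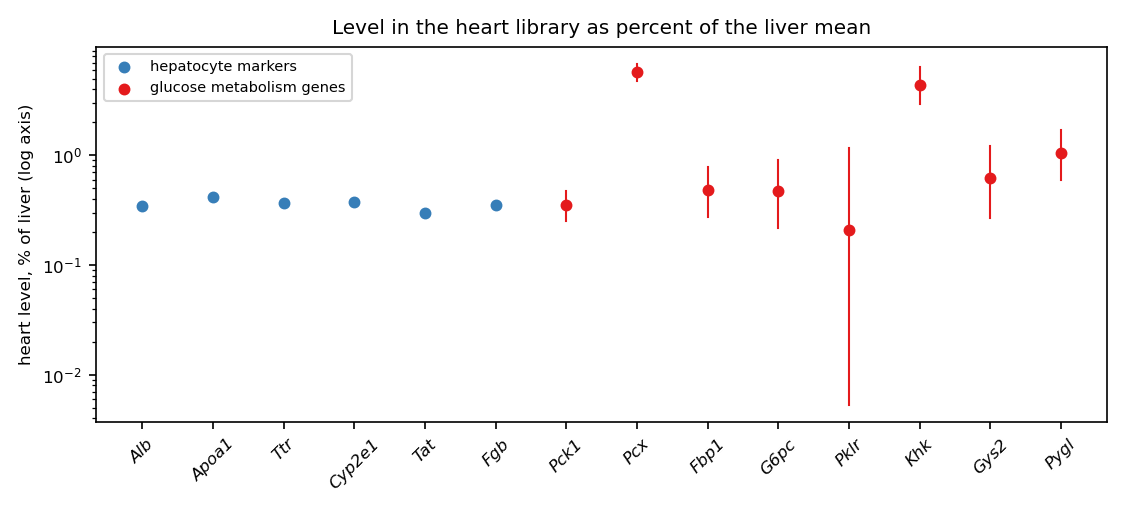
Level in the heart library as percent of the mean of the 3 batch 1 liver libraries (log axis) for 6 hepatocyte markers and the 8 genes, whose bars are 95% counting intervals. The markers lie between 0.298 and 0.420%, with Khk at 4.42% and Pcx at 5.72% above them.

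The isozymes of muscle and other tissues went the other way. Glycogen phosphorylase of muscle, Pygm, had 127 normalised CPM in heart and 0.153 ± 0.0457 in liver (SD, n = 3), a ratio of 832 (95% interval 438 to 1820) that rests on 2 to 4 counts in each liver library. The brain form Pygb had 96.2 in heart and 0.911 ± 0.231 in liver, a ratio of 105. Muscle glycogen synthase Gys1 was 44.2-fold and pyruvate kinase Pkm 41.4-fold higher in heart, with 17.3 and 106 normalised CPM there. Fbp2, the muscle bisphosphatase, had 85 counts in heart and 0 in each batch 1 liver library, which makes it at least 17.6-fold higher against a floor of 3 counts per library. G6pc3, the ubiquitous glucose-6-phosphatase subunit, was 6.01-fold higher in heart (3.51 against 0.585 ± 0.153) and the mitochondrial carboxykinase Pck2 4.04-fold (2.21 against 0.547 ± 0.00887). Liver libraries held few counts of these isozymes, 9 to 14 for G6pc3, 10 to 11 for Pck2, 5 to 9 for Gys1 and 13 to 20 for Pygb. Coding sequences of members and partners were 59.3 to 75.2% identical over their alignments, with longest identical runs of 13 to 31 bp.

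**Figure D5:**
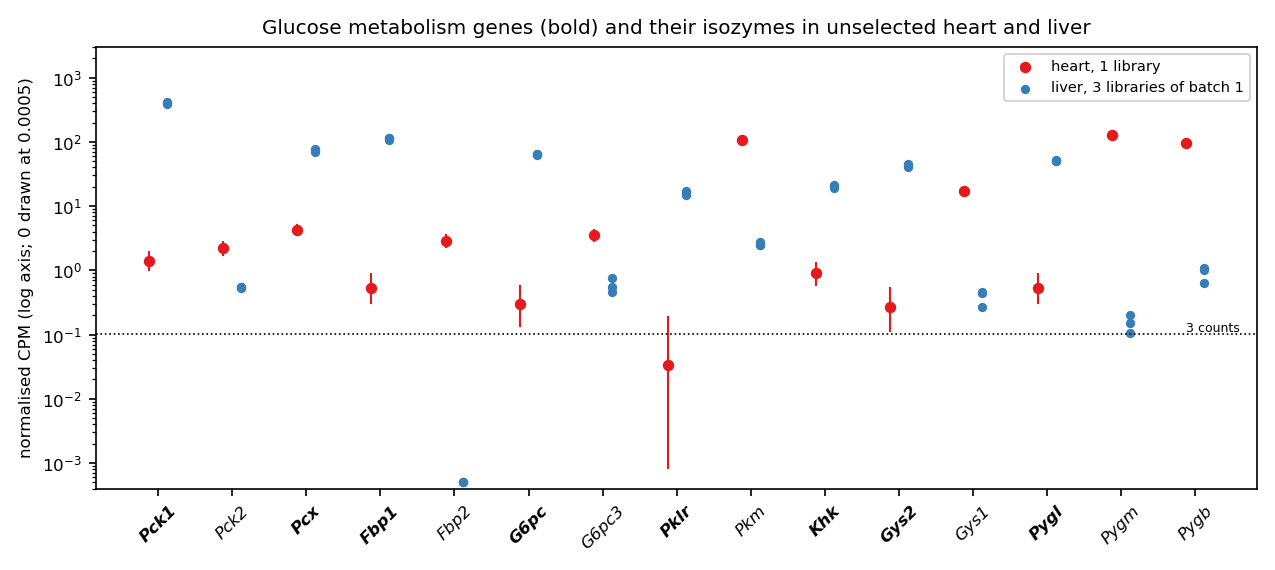
Normalised CPM (log axis) of the 8 genes (bold) and 7 isozymes in the heart library (with 95% counting intervals) and in the 3 unselected liver libraries of batch 1; the dotted line marks 3 counts in heart. Each liver gene is lower in heart and each isozyme higher, with Pygm at 127 against 0.153.

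In the pathway list, 40 of 86 genes tested were higher in heart and 38 lower (median log2 fold change 0.067, beside 0.012 over all genes). All 11 genes of pyruvate entry and shuttles were higher, and 9 of 12 regulators were lower, beside 34.8% of all genes higher and 33.6% lower. Muscle phosphoglycerate mutase Pgam2 had 1009 counts in heart and 0 in each liver library, at least 209-fold higher against the floor. The insulin-responsive transporter gene Slc2a4 had 1246 counts in heart and 0 to 2 in each liver library, a ratio of 829.9 (283 to 4030). Ldhb had 130.5 normalised CPM in heart and 0.341 ± 0.0988 in liver, and Eno3 98.1 against 0.313 ± 0.201. Lower in heart were the factor gene Hnf4a (0.435 against 108 ± 1.71), Gckr (0.0669 against 27.4 ± 1.83) and Gcgr (0.134 against 27.8 ± 1.02).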

How the data were processed

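RNA sequencing of 34 libraries was deposited as one table of expected counts per gene, which the authors had made with Salmon 1.9.0, with UMI-tools 1.1.1, R 4.4.0 and GRCm38 also named, per the submitters' processing notes. The role of UMI-tools, the transcript set and any removal of duplicates are not given in the sources used here. Of the 51368 identifiers, 50896 matched GENCODE M21 of GRCm38, and the other 472 held at most 0.0452% of the counts of a library. Expected counts, 10.5% of which were not whole, were rounded.

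Tests used edgeR 4.0.16 (R 4.3.3, limma 3.58.1): quasi-likelihood F-test, two-sided, TMM normalisation, filterByExpr, and Benjamini-Hochberg adjustment over all genes tested, with a threshold of 0.05. Method and batch comparisons used 33 liver libraries with ramp and length as covariates. Length and ramp comparisons used the 27 selected libraries or the 9 of a method, and heart was set against batch 1 liver in a fit of the 7 unselected libraries. The SE is the size of the log2 fold change over the square root of F, and intervals around fold changes are approximate and made from it. Counting intervals are 95% and exact. A floor of 3 counts was used where all libraries of a group were at 0. The fits were checked on simulated data. Alternatives were DESeq2 1.42.0, library totals with and without rRNA genes and Lars2, no filter, other covariates, fewer libraries and each replicate left out. Ramp was also tested within each method, a choice made after seeing the data.

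Members and gene lists were chosen with earlier results of these data known. Named genes were the 8 members, their isozymes, the closest profile of each member, and up to 4 other pathway genes in each direction with the largest called change in heart, method and length comparisons. A gene that this rule named is not reported here. Groups came from the labels. Per the labels' protocols, the 3 methods used different kits, and unselected libraries used the pull-down kit with less input. Members had 299 to 7983 counts in the unselected liver libraries, 1 to 126 in the heart library and 81 to 2296 in the shallowest pull-down library.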

Additional observations from a re-analysis of the deposited data

Results flagged for a closer look

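In the pull-down libraries, the one with a slow ramp and long fragments stood far from the other 8 for 3 genes. It had 214.9 normalised CPM of G6pc, 126.7 of Khk and 169.2 of Gys2. This is the library with 1.126 M counts. Of the 24 sets of 9 libraries examined this way, 3 held such a value. Chance gives about 1 in 20 for independent sets of like samples, which these are not, since they share libraries that differ in ramp and length.

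The effect of long against short fragments differed between methods for Fbp1 and Khk. The difference of the log2 effects was -0.2971 for Fbp1 and -0.2803 for Khk between polyA and digestion libraries, and -0.3119 for Fbp1 between pull-down and digestion libraries (edgeR interaction terms). Between polyA and digestion 32.6% of all genes were called, and between pull-down and digestion 14.4%. Without the low-depth library 6 of the 8 members were called in each of these, against 36.9% and 25.9% of all genes.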

How the results depend on the processing

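Limits: all libraries come from 1 animal, polyA selection and batch coincide, 1 pull-down library is shallow, and heart has 1 library. Of the single-gene values under the alternatives, 49 lost and 70 gained the call with the same sign. Another 14 changed sign with a call in the main fit or the alternative. The other 1075 kept their side of the threshold, and some of these changed sign with no call in either fit. The cause was not tested.

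Against unselected libraries, called members that also differed 2-fold were 0 for polyA, pull-down and digestion. Shares of all genes called stand in parentheses. For pull-down, 3 members, 2 higher and 1 lower, were called with totals without rRNA genes and Lars2 (31.5%). For digestion the count of 2, both lower, became 4 with DESeq2 (15.6%), 8 with library totals (98.2%) and 5 without the low-depth pull-down library (17.7%). It was 1 with totals without rRNA genes and Lars2 (19.3%) and 1 without the filter (7.76%), in both Pklr and higher. With a batch 2 unselected library left out it was 0 to 1 (8.29 to 10.4%). PolyA against pull-down gave 3 relative to the unselected libraries of each batch (29.1%).

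For long against short fragments the count of 3 became 6 with library totals (44.4%), 1 without the filter (23.1%), 1 without medium-length libraries (35.6%), and 0 at 2-fold. In pull-down it was 1 with library totals (17.3%), 4 without the low-depth library (37.4%) and 0 to 4 with single libraries left out (0.534 to 37.4%). The length difference of polyA and pull-down called 2 with DESeq2 (10.1%), 3 with library totals (17.5%) and 1 without the low-depth library (8.45%). That of polyA and digestion called 6 without the low-depth library (36.9%). That of pull-down and digestion called 4 with DESeq2 (16.2%), 7 with library totals (29%) and 6 without the low-depth library (25.9%).

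Log2 fold changes that changed sign with library totals are listed only where the main fit or the alternative called the gene. Against unselected libraries these were Pklr in pull-down (2.04) and Pck1 (2.70), Fbp1 (2.63), G6pc (2.74), Gys2 (2.65) and Pygl (2.74) in digestion. In digestion against pull-down they were Pck1 (0.15), G6pc (0.16), Khk (0.19), Gys2 (0.12) and Pygl (0.18). The others were Pygl in polyA against pull-down (0.27) and Pcx in polyA against digestion (-0.088, and -0.089 without rRNA genes and Lars2).

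Fast against slow ramps, with no member called over all methods, had 1 called within polyA libraries (0.287%), in a fit chosen after seeing the data.

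Same-numbered unselected libraries of the 2 batches did not deviate together (correlations 0.0057, -0.035 and -0.064 across genes), so the numbers pair nothing. A fit with the replicate block called 0 members and 82 genes (0.748%) between batches, and the same 6 libraries without it 0 members and 39 genes (0.366%).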
